A study of Mus musculus with 11 samples.

Results

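The 10 genes described here are the 4 members of the MITF family of transcription factors (Mitf, Tfeb, Tfe3 and Tfec) and 6 genes of melanocyte transcription and its signalling (Pax3, Lef1, Tfap2a, Tbx2, Cited1 and Mc1r). They were taken by symbol from the deposited mouse gene table, where all 10 were found among 18756 genes, and all 10 passed the expression filter that left 17350 genes for testing. Levels are given in CPM, the count of a gene scaled to a common library size. The 11 libraries were made from total RNA of end-point tumours that the labels call skin tumours, from an engineered melanoma model in C57BL/6 mice. 5 were GNA11 Q209L Bap1 KO, which carry an activated G protein alpha subunit common in uveal melanoma and a knockout of the nuclear deubiquitinase gene Bap1. 2 were GNA11 Q209L, with the same activated subunit and no labelled Bap1 knockout. 4 were BRAF V600E Bap1 KO, which carry the activated kinase common in cutaneous melanoma and the Bap1 knockout. The table's own headers give floxed Bap1 on both alleles for all 9 Bap1 KO libraries in 1 block, but NA for BRAF V600E Bap1 KO replicates 2 and 4 in a repeated block. They list a CreERT2 recombinase sequence, while age, sex, tamoxifen dose and the promoter that drives the recombinase are not stated in the sources at hand. The titles of GNA11 Q209L Bap1 KO replicates 1 and 2 share an identifier, so these may be tumours of 1 animal. No label says whether the other libraries came from separate animals, and p-values measure the spread between these libraries.

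The libraries held between 18338100 and 81035100 counts, and 3 counts in a library corresponded to 0.0337 to 0.166 CPM. Bap1 itself was counted at 102 to 170 CPM in GNA11 Q209L Bap1 KO tumours, 85.1 to 137 CPM in GNA11 Q209L tumours and 54.7 to 71.3 CPM in BRAF V600E Bap1 KO tumours, so GNA11 Q209L Bap1 KO and GNA11 Q209L overlapped and each BRAF V600E Bap1 KO library lay below both GNA11 Q209L libraries, while a count over the whole gene does not show the loss of a part of it. Summed melanocyte markers (Tyr, Tyrp1, Dct, Pmel, Mlana, Slc45a2, Oca2, Sox10 and Kit) stood at 76831 to 99685 CPM in GNA11 Q209L Bap1 KO tumours and 67187 to 68530 CPM in GNA11 Q209L tumours, against 36.6, 68.0, 643 and 404 CPM in BRAF V600E Bap1 KO replicates 1 to 4. Against the melanoma label, these markers were thus low in the BRAF V600E Bap1 KO libraries. BRAF V600E Bap1 KO replicates 3 and 4 also stood apart by other tissue: summed epidermal keratinocyte markers reached 13558 and 4397 CPM, and replicate 4 held 5778 CPM of hair follicle, 4607 CPM of skeletal muscle and 173730 CPM of salivary gland markers (a list chosen after the data were seen). T cell markers summed to 5.67 to 16.5 CPM in GNA11 Q209L Bap1 KO tumours, 2.27 to 52.1 CPM in GNA11 Q209L tumours and 13.3 to 52.0 CPM in BRAF V600E Bap1 KO tumours, and endothelial markers to 160 to 240 CPM in GNA11 Q209L Bap1 KO tumours, 198 to 583 CPM in GNA11 Q209L tumours and 65.2 to 213 CPM in BRAF V600E Bap1 KO tumours. The fold changes of the 10 genes and the list counts of GNA11 Q209L Bap1 KO over BRAF V600E Bap1 KO are also given without replicates 3 and 4. In bulk tumours, fewer cells of a type and less RNA per cell cannot be told apart.

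MITF is the basic helix-loop-helix leucine zipper factor that melanocytes need for survival and pigment, and it binds E-box sequences in the promoters of pigment genes. TFEB, TFE3 and TFEC share its DNA-binding domain. TFEB and TFE3 are held in the cytoplasm by mTORC1 acting through the Rag GTPases at the lysosome, and in the nucleus they drive lysosome and autophagy genes. PAX3, LEF1 with beta-catenin, SOX10 and CREB act on the melanocyte promoter of Mitf, and MC1R, the melanocortin receptor on melanocytes, feeds CREB through cyclic AMP.

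Mitf was higher in both GNA11 genotypes than in BRAF V600E Bap1 KO tumours. It stood at 639, 359, 853, 1200 and 546 CPM in the 5 GNA11 Q209L Bap1 KO libraries, at 332 and 345 CPM in GNA11 Q209L tumours, and at 31.2, 34, 24.9 and 44.2 CPM in BRAF V600E Bap1 KO tumours. Every library with GNA11 Q209L lay above every BRAF V600E Bap1 KO library, and the GNA11 Q209L Bap1 KO libraries differed among themselves more than those of the other genotypes. The GNA11 Q209L Bap1 KO tumours averaged 719 ± 322 CPM and the BRAF V600E Bap1 KO tumours 33.6 ± 8.02 CPM (SD, n = 5 and 4), and the log2 fold change was 4.42 ± 0.40 (SE; adjusted p = 0.000142, edgeR's quasi-likelihood test over all tested genes). GNA11 Q209L, at 338 ± 9.15 CPM (SD, n = 2), was higher than BRAF V600E Bap1 KO by 3.33 ± 0.43 on the log2 scale (adjusted p = 0.00201, edgeR). The differences from BRAF V600E Bap1 KO without its replicates 3 and 4 were 4.44 for GNA11 Q209L Bap1 KO and 3.34 for GNA11 Q209L.

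Mitf is read from several promoters, the one used in melanocytes lying downstream of the others, and a count per gene does not tell them apart. The 250 bases before the farthest downstream of the 3 Mitf starts in RefSeq (GRCm38.p6, a later build than the mm9 of the counts) are shown because they hold 2 motifs of the pathways described here, in capitals: CTTTGA, the core read by LEF1 and other TCF factors, and TGACGTCA, the cyclic AMP response element read by CREB. Over the same 250 bases of all 27025 genes with an entry, on either strand, CTTTGA was found in 15.8% and TGACGTCA in 1.77% of genes. These matches are letters, not shown sites.
Mitf, downstream start, chr6:97991533-97991782 (+ strand): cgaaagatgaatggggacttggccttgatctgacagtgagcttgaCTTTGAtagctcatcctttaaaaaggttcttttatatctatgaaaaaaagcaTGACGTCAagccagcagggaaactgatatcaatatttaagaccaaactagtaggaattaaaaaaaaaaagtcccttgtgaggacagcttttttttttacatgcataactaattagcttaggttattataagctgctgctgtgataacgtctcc

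Tfeb was called in the same direction as Mitf. Tfeb, the family member best known for lysosome genes, was at 68.7, 109, 94.7, 40.7 and 95.4 CPM in GNA11 Q209L Bap1 KO tumours, at 91.1 and 115 CPM in GNA11 Q209L tumours, and at 6.68, 6.78, 26.2 and 22.6 CPM in BRAF V600E Bap1 KO tumours. Every library with GNA11 Q209L lay above every BRAF V600E Bap1 KO library, and within BRAF V600E Bap1 KO the pair of replicates with keratinocyte transcripts, 3 and 4, was the higher one. Tfeb was higher in the GNA11 Q209L Bap1 KO tumours than in BRAF V600E Bap1 KO tumours by 2.39 ± 0.49 (log2, SE, adjusted p = 0.00476, edgeR), and by 3.58 without BRAF V600E Bap1 KO replicates 3 and 4. Against BRAF V600E Bap1 KO, GNA11 Q209L was higher in Tfeb by 2.73 ± 0.56 (adjusted p = 0.015, edgeR). This call was lost in 2 of 15 alternatives, among them the fit without GNA11 Q209L replicate 2. The difference was 3.90 without BRAF V600E Bap1 KO replicates 3 and 4.

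Tfe3, the X-linked member that most cells express, was at 78.6, 118, 98.8, 62.2 and 114 CPM in GNA11 Q209L Bap1 KO tumours, at 111 and 137 CPM in GNA11 Q209L tumours, and at 94.4, 55.3, 51.3 and 51.7 CPM in BRAF V600E Bap1 KO tumours. The BRAF V600E Bap1 KO libraries overlapped those of GNA11 Q209L Bap1 KO. Replicate 1 of the former was high and replicates 1 and 4 of the latter were low. Every GNA11 Q209L library lay above every BRAF V600E Bap1 KO library. The log2 fold change of GNA11 Q209L over BRAF V600E Bap1 KO was 0.97 ± 0.33 (SE, adjusted p = 0.0662, edgeR). It missed the threshold and was called in 2 of 15 alternatives. The log2 fold change of GNA11 Q209L Bap1 KO over BRAF V600E Bap1 KO was 0.58 ± 0.27 and missed the threshold (adjusted p = 0.101, edgeR). Without BRAF V600E Bap1 KO replicate 1 it was 0.83 and passed (adjusted p = 0.0223, edgeR), and without GNA11 Q209L Bap1 KO replicate 4 it was 0.78 (adjusted p = 0.0448, edgeR). It was 0.31 without BRAF V600E Bap1 KO replicates 3 and 4 (adjusted p = 0.505, edgeR).

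Tfec, which in mice is best known from macrophages, was at 1.41, 0.83, 1.73, 0.76 and 0.59 CPM in GNA11 Q209L Bap1 KO tumours, at 8.64 and 0.58 CPM in GNA11 Q209L tumours, and at 11.2, 14.8, 0.80 and 1.88 CPM in BRAF V600E Bap1 KO tumours. High and low libraries occurred within GNA11 Q209L and within BRAF V600E Bap1 KO, and all groups overlapped. The log2 fold change of GNA11 Q209L Bap1 KO over BRAF V600E Bap1 KO was -2.76 ± 0.93 (SE, adjusted p = 0.0359, edgeR), and the call was lost in 11 of 18 alternative settings, where adjusted p over all settings ran between 0.00547 and 0.108. It was -3.64 without BRAF V600E Bap1 KO replicates 3 and 4 (adjusted p = 0.00698, edgeR). Summed macrophage markers (Adgre1, Csf1r, Cd68, Lyz2, Mrc1, Cd14, Itgam and Fcgr1) were at 792, 760, 1079, 244 and 201 CPM in GNA11 Q209L Bap1 KO tumours, 6177 and 647 CPM in GNA11 Q209L tumours, and 2255, 1545, 514 and 1243 CPM in BRAF V600E Bap1 KO tumours, and none of the 8 was at 0 counts in any library. The 3 libraries highest in Tfec were the 3 highest in these markers. Their part in the result was not tested.

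**Figure D1:**
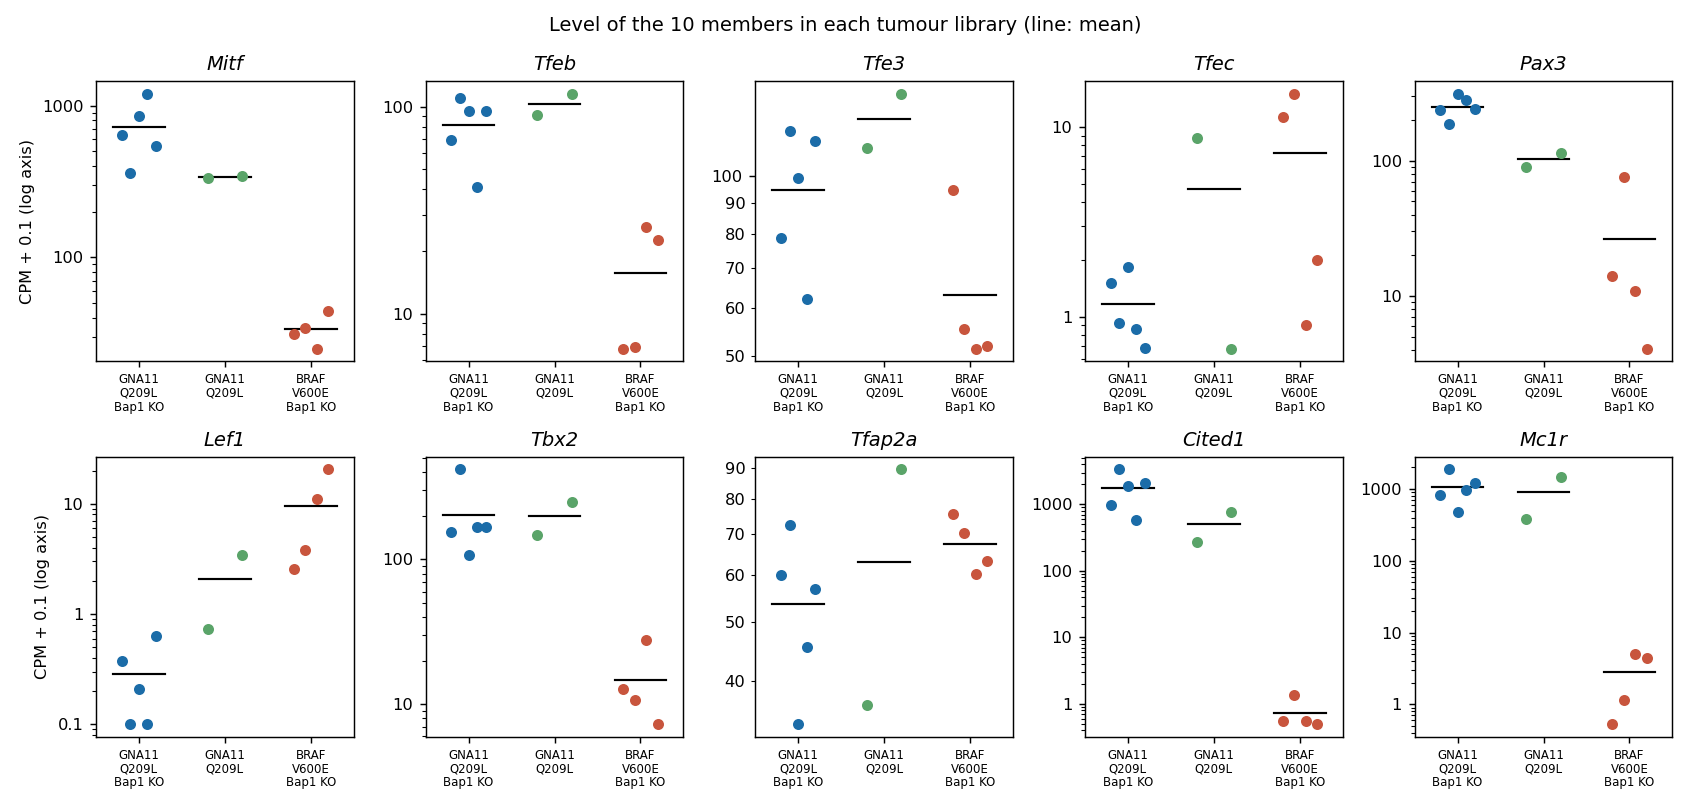
Level of each of the 10 genes in the 11 libraries, in CPM plus 0.1 on a log axis whose range differs between panels. Points are libraries, lines are group means. Mitf, Pax3, Tbx2, Cited1, Mc1r and Tfeb lie higher in every GNA11 Q209L Bap1 KO library than in any BRAF V600E Bap1 KO library, Lef1 lies lower, and Tfe3, Tfap2a and Tfec overlap.

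The makeup of the family also differed. Of the counts summed over Mitf, Tfeb, Tfe3 and Tfec, Mitf took 81.1%, 61.1%, 81.4%, 92.1% and 72.2% in GNA11 Q209L Bap1 KO tumours, 61.1% and 57.7% in GNA11 Q209L tumours, and 21.7%, 30.6%, 24.1% and 36.7% in BRAF V600E Bap1 KO tumours. Mitf was thus the majority in all 7 libraries that carry GNA11 Q209L and in none of the 4 BRAF V600E Bap1 KO libraries. The mean share was 77.6 ± 11.6% (SD, n = 5) in GNA11 Q209L Bap1 KO tumours and 28.3 ± 6.73% (SD, n = 4) in BRAF V600E Bap1 KO tumours, 49.3 percentage points apart (exact two-sided permutation p = 0.0159, the smallest that 5 against 4 libraries allow, and 0.0476 adjusted over the 3 comparisons). That test counts GNA11 Q209L Bap1 KO replicates 1 and 2, which may be of 1 animal, as separate libraries. With these summed the shares were 51.3 points apart (exact permutation p = 0.0286). With 1 library left out, the exact permutation p was 0.0286 or 0.0357. Without BRAF V600E Bap1 KO replicates 3 and 4 the shares were 51.4 points apart (exact permutation p = 0.0952, the smallest that 5 against 2 allow). The p-values of these alternatives are not adjusted over the 3 comparisons. GNA11 Q209L averaged 59.4 ± 2.43% (SD, n = 2), 31.1 points above BRAF V600E Bap1 KO (exact permutation p = 0.133, the smallest that 2 against 4 allow). GNA11 Q209L Bap1 KO was 18.2 points above GNA11 Q209L (exact permutation p = 0.19, where the smallest possible is 0.0952). Tfe3 had the largest share of the counts in each BRAF V600E Bap1 KO library, and averaged 11.9 ± 5.90% in GNA11 Q209L Bap1 KO tumours, 21.7 ± 1.72% in GNA11 Q209L tumours and 52.1 ± 9.70% in BRAF V600E Bap1 KO tumours (SD, n = 5, 2 and 4). Divided by exon length, which sets the 4 genes on a scale per length, the Mitf share was 79.8 ± 10.8% in GNA11 Q209L Bap1 KO tumours, 62.8 ± 2.23% in GNA11 Q209L tumours and 33.3 ± 6.87% in BRAF V600E Bap1 KO tumours. On that scale Tfe3 took 41.5 ± 9.72% in BRAF V600E Bap1 KO tumours (SD, n = 4), and in BRAF V600E Bap1 KO replicate 4 Mitf, at 41.8%, exceeded Tfe3, at 32.8%. The 4 genes together summed to 897 ± 281 CPM in GNA11 Q209L Bap1 KO tumours, 570 ± 38.7 CPM in GNA11 Q209L tumours and 119 ± 17.5 CPM in BRAF V600E Bap1 KO tumours (SD, n = 5, 2 and 4).

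**Figure D2:**
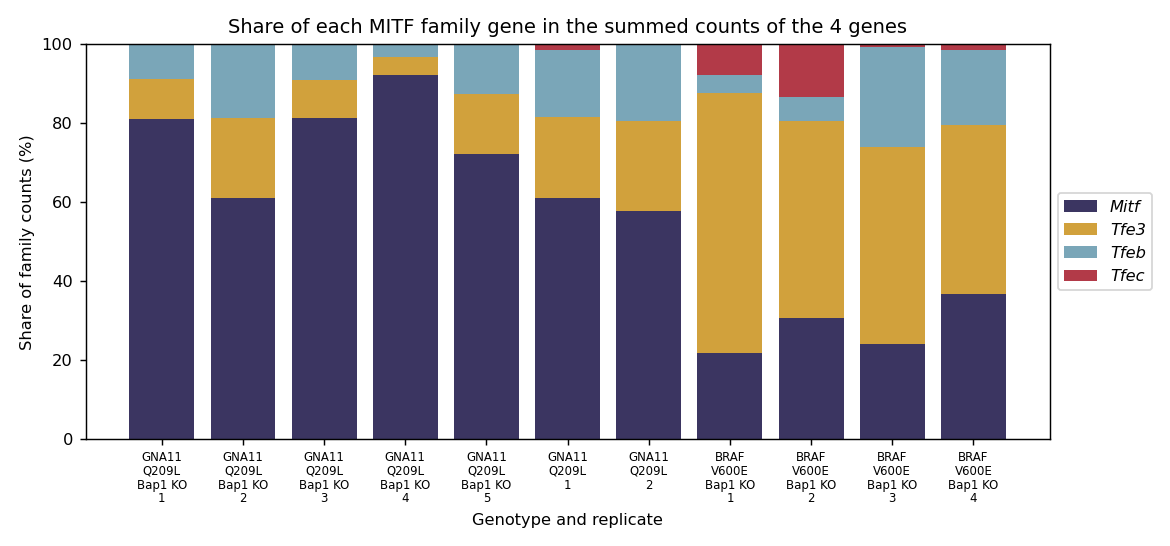
Share of each MITF family gene in the counts summed over the 4 genes, in percent, 1 bar per library. Mitf takes 57.7 to 92.1% in the libraries with GNA11 Q209L and 21.7 to 36.7% in BRAF V600E Bap1 KO tumours, where Tfe3 is the largest part of these counts, which are not divided by gene length.

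Of the regulators upstream of Mitf, Pax3 differed in the same direction as Mitf, Lef1 in the opposite one, and Tfap2a not detectably. Pax3, a paired-box factor of the neural crest that activates Mitf, was at 236, 187, 313, 282 and 240 CPM in GNA11 Q209L Bap1 KO tumours, at 89.9 and 114 CPM in GNA11 Q209L tumours, and at 13.8, 76.0, 10.8 and 3.98 CPM in BRAF V600E Bap1 KO tumours. The 3 genotypes did not overlap, and BRAF V600E Bap1 KO replicate 2 came nearest to the GNA11 Q209L level. Pax3 was higher in the GNA11 Q209L Bap1 KO tumours than in BRAF V600E Bap1 KO tumours by 3.27 ± 0.74 (log2, SE, adjusted p = 0.00755, edgeR), by 4.71 without BRAF V600E Bap1 KO replicate 2, and by 2.48 without BRAF V600E Bap1 KO replicates 3 and 4. GNA11 Q209L against BRAF V600E Bap1 KO gave 1.97 ± 0.82 (adjusted p = 0.112, edgeR), and 3.41 (adjusted p = 0.00528, edgeR) without BRAF V600E Bap1 KO replicate 2. Skeletal muscle precursors also use Pax3. Summed skeletal muscle markers were at 45.2, 165, 9.26 and 4607 CPM in BRAF V600E Bap1 KO replicates 1 to 4, with Pax3 lowest in replicate 4, and at 1.04 to 69.8 CPM in GNA11 Q209L Bap1 KO tumours.

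Lef1, the factor that joins beta-catenin on Wnt-responsive promoters, was close to absent from GNA11 Q209L Bap1 KO, with 5, 0, 2, 0 and 31 counts, or 0.27, 0, 0.11, 0 and 0.54 CPM. It stood at 0.63 and 3.34 CPM in GNA11 Q209L tumours and at 2.48, 3.71, 11 and 20.4 CPM in BRAF V600E Bap1 KO tumours. No GNA11 Q209L Bap1 KO library reached the level of any library of the other genotypes. Lef1 was lower in GNA11 Q209L Bap1 KO tumours than in BRAF V600E Bap1 KO tumours, with a log2 fold change of -5.54 and an SE of 1.17 (adjusted p = 0.0056, edgeR). It was -3.95 without BRAF V600E Bap1 KO replicates 3 and 4, -4.83 without BRAF V600E Bap1 KO replicate 4 and -6.51 without GNA11 Q209L Bap1 KO replicate 5, and the call held each time. GNA11 Q209L over BRAF V600E Bap1 KO gave -2.24 ± 1.44 (adjusted p = 0.275, edgeR). The skin epithelium also uses Lef1. Keratinocyte and hair follicle markers were at 151, 350, 13632 and 10175 CPM in BRAF V600E Bap1 KO replicates 1 to 4, and the libraries with the most Lef1 were those with the most of these markers. In GNA11 Q209L Bap1 KO the same markers were at 1618 CPM in replicate 1 and 1.35 to 8.30 CPM in the others, and in GNA11 Q209L tumours at 11.3 and 6.82 CPM. Their part in the result was not tested.

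**Figure D3:**
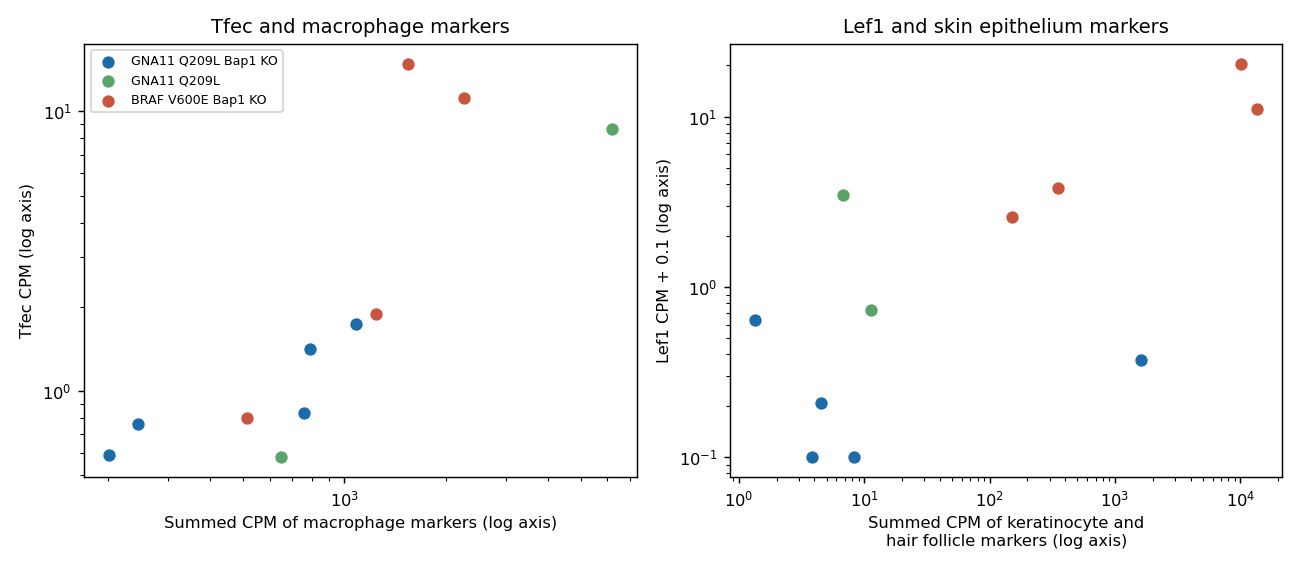
Tfec (CPM) against summed macrophage markers (CPM), and Lef1 (CPM plus 0.1) against summed keratinocyte and hair follicle markers (CPM), on log axes, 1 point per library. The libraries highest in Tfec are those with 1545 to 6177 CPM of macrophage markers, and Lef1 is highest in the BRAF V600E Bap1 KO libraries with 13632 and 10175 CPM of epithelial markers.

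Tfap2a, a neural crest and epidermal factor that works beside MITF in human melanocytes, was at 59.7, 72.3, 33.8, 45.4 and 56.7 CPM in GNA11 Q209L Bap1 KO tumours, at 36.4 and 89.5 CPM in GNA11 Q209L tumours, and at 75.5, 70.3, 60.0 and 63.1 CPM in BRAF V600E Bap1 KO tumours. The groups overlapped. The log2 fold change of GNA11 Q209L Bap1 KO over BRAF V600E Bap1 KO was -0.33 ± 0.29 (adjusted p = 0.376, edgeR), or -0.47 without BRAF V600E Bap1 KO replicates 3 and 4, and that of GNA11 Q209L over BRAF V600E Bap1 KO was -0.10 ± 0.37 (adjusted p = 0.871, edgeR).

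Cited1, a coactivator of CBP/p300 that pigment cells express, had the largest log2 fold change among the genes higher in GNA11 Q209L Bap1 KO tumours than in BRAF V600E Bap1 KO tumours, of 17350 tested. It was at 961, 3332, 1857, 582 and 2070 CPM in GNA11 Q209L Bap1 KO tumours, at 271 and 754 CPM in GNA11 Q209L tumours, and at 0.45, 1.26, 0.45 and 0.39 CPM in BRAF V600E Bap1 KO tumours. GNA11 Q209L Bap1 KO exceeded BRAF V600E Bap1 KO by 11.43 ± 0.90 (log2, SE, adjusted p = 7.05e-05, edgeR) and GNA11 Q209L exceeded BRAF V600E Bap1 KO by 9.65 ± 0.88 (adjusted p = 0.000294, edgeR), or by 8.72 without GNA11 Q209L replicate 2. The differences from BRAF V600E Bap1 KO without its replicates 3 and 4 were 11.03 for GNA11 Q209L Bap1 KO and 9.25 for GNA11 Q209L. Cited1 and Tfe3 lie on the X chromosome, and Xist, the RNA of the silenced X, varied between 0.26 and 1224 CPM over the libraries. Xist was at 0.71, 0.995, 695, 0.43 and 1.42 CPM in GNA11 Q209L Bap1 KO tumours and at 358 and 198 CPM in GNA11 Q209L tumours. In BRAF V600E Bap1 KO tumours Xist was at 99.8, 0.92, 1224 and 0.26 CPM. With Xist as a covariate the difference in Cited1 between GNA11 Q209L Bap1 KO tumours and BRAF V600E Bap1 KO tumours was 11.40 and that in Tfe3 0.63. Cited1 and Mitf did not order the libraries of GNA11 Q209L Bap1 KO alike: replicate 4 was highest in Mitf and lowest in Cited1, Tfeb and Tfe3, while replicate 2 was lowest in Mitf and highest in Cited1, Mc1r, Tbx2, Tfeb and Tfe3.

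Tbx2, a T-box repressor that holds back senescence in melanoma cells and is a target of MITF in mouse melanocytes, was at 154, 418, 107, 169 and 167 CPM in GNA11 Q209L Bap1 KO tumours, at 148 and 251 CPM in GNA11 Q209L tumours, and at 12.6, 10.6, 27.7 and 7.17 CPM in BRAF V600E Bap1 KO tumours. Each GNA11 library lay above each BRAF V600E Bap1 KO library. The difference was 3.81 ± 0.54 (log2, SE, adjusted p = 0.000978, edgeR) for GNA11 Q209L Bap1 KO over BRAF V600E Bap1 KO. For GNA11 Q209L over BRAF V600E Bap1 KO it was 3.78 ± 0.60 (adjusted p = 0.00526, edgeR), with adjusted p = 0.0546 without GNA11 Q209L replicate 2. With BRAF V600E Bap1 KO replicates 3 and 4 left out, the differences from BRAF V600E Bap1 KO were 4.11 for GNA11 Q209L Bap1 KO and 4.06 for GNA11 Q209L.

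Mc1r, the receptor for alpha-melanocyte-stimulating hormone, was at 822, 1875, 486, 970 and 1218 CPM in GNA11 Q209L Bap1 KO tumours, at 384 and 1451 CPM in GNA11 Q209L tumours, and at 0.43, 1.06, 4.98 and 4.33 CPM in BRAF V600E Bap1 KO tumours. It was higher in the GNA11 Q209L Bap1 KO tumours than in BRAF V600E Bap1 KO tumours by 8.65 ± 1.01 (log2, SE, adjusted p = 0.00039, edgeR), the 18th largest among the genes higher in GNA11 Q209L Bap1 KO tumours, and by 10.53 without BRAF V600E Bap1 KO replicates 3 and 4. In GNA11 Q209L it was higher than in BRAF V600E Bap1 KO tumours by 8.42 ± 1.03 (adjusted p = 0.00163, edgeR), by 10.29 without BRAF V600E Bap1 KO replicates 3 and 4, by 7.18 without GNA11 Q209L replicate 2 and by 9.09 without GNA11 Q209L replicate 1. BRAF V600E Bap1 KO replicates 3 and 4, the higher pair in Mc1r, also held 643 and 404 CPM of melanocyte markers. Most of these sums was Sox10, the neural crest factor of melanocytes and Schwann cells, at 533 and 232 CPM there against 1.93 and 3.58 CPM in replicates 1 and 2. Summed Schwann cell markers were at 59.8, 62.3, 1128 and 653 CPM in BRAF V600E Bap1 KO replicates 1 to 4. The recombinase sequence CreERT2 was counted at 181 to 326 CPM in GNA11 Q209L Bap1 KO tumours, at 85.6 to 129 CPM in GNA11 Q209L tumours, at 24.7 CPM in BRAF V600E Bap1 KO replicate 3 and at 0.17, 0.20 and 0.92 CPM in replicates 1, 2 and 4.

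The Mc1r promoter is shown because it is the only one of the 8 matched member promoters (Pax3 and Tbx2 had no entry) that holds TCATGTG, the M-box through which MITF reads pigment genes. TCATGTG occurred in the 250-base windows of 3.72% of all genes, and the shorter E-box CATGTG, which it contains, in 13.8%. Capitals mark an E-box read on the opposite strand (CACATG) and, downstream of it, the M-box. Cited1 held a CATGTG without the M-box T, in the second line.
Mc1r, chr8:123406832-123407081 (+ strand): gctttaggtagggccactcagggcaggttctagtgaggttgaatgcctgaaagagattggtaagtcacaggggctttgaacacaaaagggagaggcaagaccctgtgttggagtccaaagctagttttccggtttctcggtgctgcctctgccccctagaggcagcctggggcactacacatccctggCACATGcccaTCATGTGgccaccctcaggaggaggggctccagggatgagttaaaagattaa
Cited1, chrX:102251958-102252007 (minus strand): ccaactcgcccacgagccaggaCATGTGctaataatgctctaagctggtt

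In all, 8 of the 10 genes passed the threshold between GNA11 Q209L Bap1 KO tumours and BRAF V600E Bap1 KO tumours, 6 higher and 2 lower, against a background of 41.2% of all tested genes called, 16.5% higher and 24.7% lower. The groups did not overlap for 7 of the 10, 6 higher and 1 lower, where 31.8% of all genes did not overlap, 14.7% higher and 17.2% lower. At an unadjusted p under 0.05, 51.3% of all genes passed. The median log2 fold change was 2.83 over the 10 genes and -0.26 over all genes. Between GNA11 Q209L tumours and BRAF V600E Bap1 KO tumours, 5 of the 10 were called, all higher (Mitf, Tfeb, Tbx2, Cited1 and Mc1r), against 15.2% of all genes called, 9.27% higher and 5.93% lower (36.5% at an unadjusted p under 0.05). Groups did not overlap for 7 of the 10, all higher, where 41.9% of all genes did not overlap, 19% higher and 22.9% lower. The median there was 2.35 for the 10 genes and -0.23 for all genes. Both comparisons use the same 4 BRAF V600E Bap1 KO libraries, so they are not independent of each other.

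**Figure D4:**
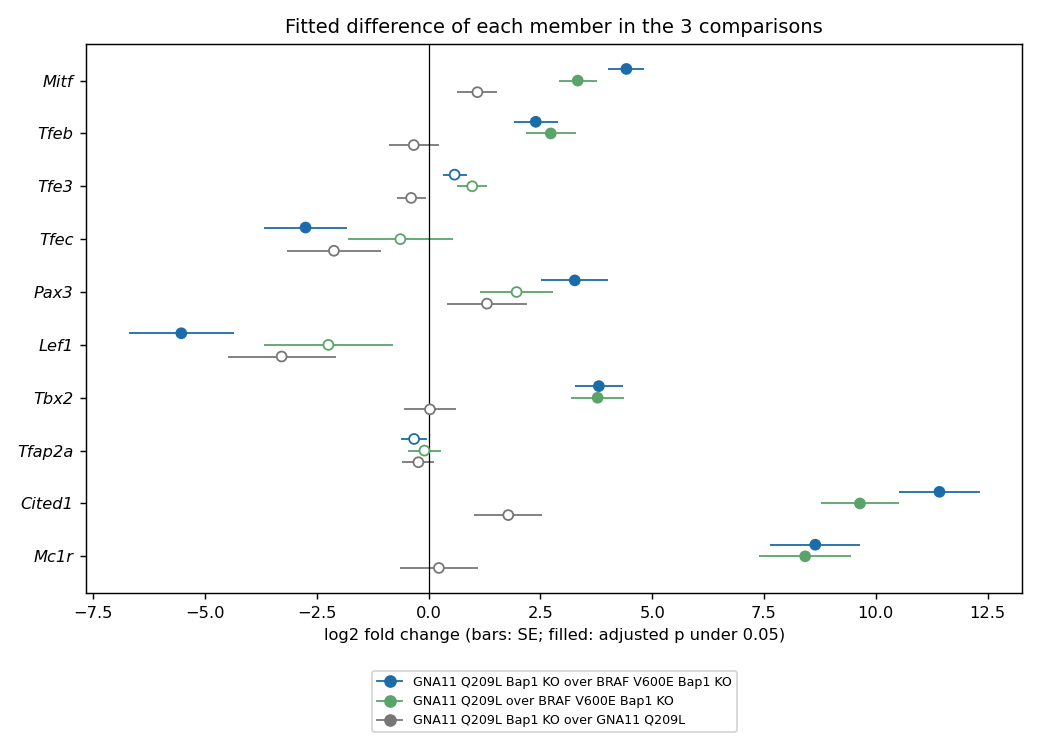
Fitted log2 fold change of each gene with its SE in the 3 comparisons, filled where the adjusted p was under 0.05. Mitf, Tfeb, Tbx2, Cited1 and Mc1r are filled in both comparisons with BRAF V600E Bap1 KO, and none is filled for GNA11 Q209L Bap1 KO over GNA11 Q209L.

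GNA11 Q209L Bap1 KO against GNA11 Q209L asks what accompanies the labelled Bap1 knockout where the labels give the same activated subunit. None of the 10 genes was called by edgeR, DESeq2 or limma voom, where edgeR called 5 of all genes (0.0288%, with 0.00576% higher and 0.0231% lower), DESeq2 442 and voom 5. At an unadjusted p under 0.05 edgeR listed 3 of the 10, against 11.4% of all genes. Mitf gave 1.09 ± 0.45 on the log2 scale (SE, adjusted p = 0.399, edgeR), with the lowest GNA11 Q209L Bap1 KO library (359 CPM) above the highest GNA11 Q209L library (345 CPM). Cited1 had a log2 fold change of 1.78 ± 0.77 (adjusted p = 0.414, edgeR) with overlapping groups, and Lef1 one of -3.29 ± 1.21 (adjusted p = 0.354, edgeR). Pax3 had 1.30 ± 0.89 (adjusted p = 0.638, edgeR), its groups apart at 187 to 313 CPM in GNA11 Q209L Bap1 KO tumours and 89.9 to 114 CPM in GNA11 Q209L tumours. Groups did not overlap for 3 of the 10 genes, 2 higher and 1 lower, where 16.6% of all genes did not overlap, 7.58% higher and 9.01% lower. The other 6 genes had log2 fold changes between -2.12 (Tfec) and 0.23 (Mc1r), and that of Tbx2 was 0.03 and turned negative in 4 of 14 alternative settings. With 2 GNA11 Q209L libraries, these intervals are wide: the SE was 0.87 for Mc1r and 1.05 for Tfec. Xist, given with Cited1, was high in both GNA11 Q209L libraries and, among the GNA11 Q209L Bap1 KO libraries, only in replicate 3. Sex is not labelled, and the Xist level and the labelled knockout went together except in that replicate. Transgene levels differed as well. The sequence hGNA11-Q209L was at 6.52 to 17.4 CPM in GNA11 Q209L Bap1 KO tumours. In GNA11 Q209L tumours it was at 22.95 and 125 CPM. The sequence hFLPe was at 67.5, 36.4, 0.0541, 154 and 131 CPM in GNA11 Q209L Bap1 KO tumours. In GNA11 Q209L tumours hFLPe was at 0.0262 and 0.0446 CPM. The part of these sequences in this comparison was not tested.

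Per kilobase of exon, which allows genes to be ranked against each other, the order of mean levels also differed. In GNA11 Q209L Bap1 KO it ran Cited1 (1004 CPM per kb), Mc1r (295), Mitf (116), Tbx2 (56.0), Pax3 (40.7), Tfeb (14.4), Tfap2a (10.9), Tfe3 (10.2), Tfec (0.19) and Lef1 (0.0208). In GNA11 Q209L it ran Cited1 (292 CPM per kb), Mc1r (252), Tbx2 (54.9), Mitf (54.6), Tfeb (18.2), Pax3 (16.5), Tfe3 (13.4), Tfap2a (12.8), Tfec (0.824) and Lef1 (0.226). In BRAF V600E Bap1 KO it ran Tfap2a (13.7 CPM per kb), Tfe3 (6.82), Mitf (5.42), Pax3 (4.23), Tbx2 (4.0), Tfeb (2.75), Tfec (1.28), Lef1 (1.07), Mc1r (0.742) and Cited1 (0.364). Cited1 and Mc1r thus stood at the top in both GNA11 genotypes and at the bottom in BRAF V600E Bap1 KO tumours. Neighbours in this order whose mean ± SD ranges did not overlap were Pax3 and Tfeb, Tfe3 and Tfec, and Tfec and Lef1 in GNA11 Q209L Bap1 KO tumours, Mitf and Tfeb, and Tfap2a and Tfec in GNA11 Q209L tumours, and Tfap2a and Tfe3 in BRAF V600E Bap1 KO tumours. The mean ± SD ranges of the other neighbours overlapped. These ranges include the variation between libraries, so an overlap does not show that neighbouring genes were alike within each library. Differences between neighbours within libraries were not tested.

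The genes with the most similar profile over the 11 libraries were found by the root mean square difference of centred log2 CPM, among genes whose log2 CPM averaged 2 or more. These are descriptions over libraries that share 3 genotypes. Nearest to Mitf were A130022J15Rik (0.457), Fmn1 (0.548), St3gal6 (0.582), BC043934 (0.590) and Optn (0.593). Nearest to Mc1r was Tyr (0.731), the rate-limiting enzyme of melanin synthesis, followed by Syt9 (0.786) and Oca2 (0.789). Cited1 lay nearest to Cort (0.716), Tspan10 (0.795) and Pmel (0.966), which makes the fibrils of the melanosome. Tbx2 was nearest to Naglu (0.451), a lysosomal enzyme, and Cdk2 (0.498), a cell cycle kinase. Tfec lay nearest to Ms4a6d (0.552), Lcp2 (0.605) and Acp5 (0.611), genes of myeloid cells and osteoclasts, and Pax3 to Sgip1 (0.450). The nearest gene was Wfs1 for Tfeb (0.340), Tbc1d10b for Tfe3 (0.101) and Dus1l for Tfap2a (0.210). Lef1 had no close match, with Tmem45a at 1.00 and Vdr at 1.09.

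All 15 pigment genes known as MITF targets were called higher in the GNA11 Q209L Bap1 KO tumours than in BRAF V600E Bap1 KO tumours (16.5% of all genes). Their median log2 fold change was 8.35 against -0.26 over all genes. All 15 were also called higher in GNA11 Q209L tumours than in BRAF V600E Bap1 KO tumours (9.27% of all genes). All 15 were also called in both comparisons without BRAF V600E Bap1 KO replicates 3 and 4, with a median of 9.85 for GNA11 Q209L Bap1 KO. Tyr, the first enzyme of melanin synthesis, averaged 2633 ± 901 CPM in GNA11 Q209L Bap1 KO tumours, 1481 ± 250 CPM in GNA11 Q209L tumours and 4.84 ± 4.30 CPM in BRAF V600E Bap1 KO tumours (SD, n = 5, 2 and 4). Slc24a5, an ion exchanger of pigment cells, had a log2 fold change of 7.81 ± 0.51 for GNA11 Q209L Bap1 KO over BRAF V600E Bap1 KO and Oca2, an ion channel of the melanosome, one of 9.49 ± 0.64. Myo5a, the motor that carries melanosomes, had the smallest, 3.25 ± 0.38. The mean log2 CPM of the list spanned 10.84 to 11.12 over the 5 GNA11 Q209L Bap1 KO libraries, across which Mitf ranged between 359 and 1200 CPM. In GNA11 Q209L it was 10.92 and 10.75, and in BRAF V600E Bap1 KO tumours 1.49, 2.34, 3.33 and 4.0 in replicates 1 to 4, where Mitf stayed between 24.9 and 44.2 CPM. Melanocyte markers share 7 of these genes.

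Of the 10 pigment genes with a RefSeq promoter entry, 5 held the M-box TCATGTG in the 250 bases before the start, or 50% where 3.72% of all genes did. Their stretches are shown with the M-box, or its complement CACATGA, in capitals. Dct, the enzyme that follows Tyr in eumelanin synthesis, held 2. The pigment genes were listed as known MITF targets, so the share with an M-box is not independent of that choice.
Tyr, chr7:87493513-87493556 (minus strand): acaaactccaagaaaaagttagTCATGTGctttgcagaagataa
Tyrp1, chr4:80834144-80834194 (+ strand): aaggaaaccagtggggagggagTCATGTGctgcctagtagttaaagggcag
Dct, first site, chr14:118052450-118052496 (minus strand): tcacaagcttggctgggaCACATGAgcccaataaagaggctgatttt
Dct, second site, chr14:118052369-118052419 (minus strand): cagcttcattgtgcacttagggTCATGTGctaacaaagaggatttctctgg
Slc24a5, chr2:125068092-125068126 (+ strand): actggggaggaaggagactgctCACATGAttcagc
Trpm1, chr7:64153671-64153721 (+ strand): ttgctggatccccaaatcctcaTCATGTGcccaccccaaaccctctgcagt

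MITF targets of survival, cell cycle and metabolism were less uniform: 3 of 9 were called higher and none lower, where 16.5% of all genes were called higher and 24.7% lower, with a median of 0.06. The count was also 3 without BRAF V600E Bap1 KO replicates 3 and 4, with a median of 0.68. Cdk2 was the clearest, at 687 ± 94.0 CPM in GNA11 Q209L Bap1 KO tumours, 487 ± 121 CPM in GNA11 Q209L tumours and 43.2 ± 10.1 CPM in BRAF V600E Bap1 KO tumours (SD, n = 5, 2 and 4), a log2 fold change of 3.99 ± 0.27 for GNA11 Q209L Bap1 KO over BRAF V600E Bap1 KO. Met, the receptor for hepatocyte growth factor, differed by 5.55 ± 0.47 and the survival gene Bcl2 by 2.08 ± 0.39. Hif1a had 0.59 ± 0.23 (adjusted p = 0.063, edgeR) and was not called. Between GNA11 Q209L tumours and BRAF V600E Bap1 KO tumours, Cdk2, Met and Hif1a were called higher, Hif1a by 1.2 ± 0.29 (adjusted p = 0.025, edgeR). In that comparison 9.27% of all genes were called higher.

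Most lysosome and autophagy genes known as targets of TFEB and TFE3 were higher in both comparisons with BRAF V600E Bap1 KO. In GNA11 Q209L Bap1 KO, 20 of 25 were called higher (16.5% of all genes) and none lower, with a median log2 fold change of 1.85. In GNA11 Q209L it was 22 of 25 (9.27% of all genes), with a median of 2.28, but 11 of 25 in a fit of GNA11 Q209L and BRAF V600E Bap1 KO alone. Naglu was at 515 ± 246 CPM in GNA11 Q209L Bap1 KO tumours, 545 ± 211 CPM in GNA11 Q209L tumours and 31.6 ± 11.4 CPM in BRAF V600E Bap1 KO tumours. For GNA11 Q209L Bap1 KO over BRAF V600E Bap1 KO, the sulfamidase gene Sgsh differed by 2.48 ± 0.30, and the V-ATPase subunits Atp6v1h by 1.85 ± 0.20 and Atp6v0d1 by 2.32 ± 0.29 (log2, SE). The count in GNA11 Q209L Bap1 KO tumours was 13 of 25 without BRAF V600E Bap1 KO replicates 2 and 4 and 16 without replicates 3 and 4. The mean log2 CPM of the list was 8.49, 8.83, 8.83, 7.75 and 8.65 in GNA11 Q209L Bap1 KO tumours, 9.28 and 8.93 in GNA11 Q209L tumours, and 7.09, 6.79, 6.30 and 6.60 in BRAF V600E Bap1 KO tumours, and GNA11 Q209L Bap1 KO replicate 4, the lowest there, was also the lowest in Tfeb and Tfe3 and the highest in Mitf. Of the 18 lysosome genes with a promoter entry, 8 (44.4%) held the E-box CACGTG, which 6.86% of all genes held, and 1 held the M-box. The genes were listed as known targets of factors that bind E-boxes, so this share is not independent of that choice.

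The machinery that controls where TFEB and TFE3 reside showed 8 of 18 genes called higher in the GNA11 Q209L Bap1 KO tumours than in BRAF V600E Bap1 KO tumours and none lower (median 0.67), where 16.5% of all genes were called higher and 24.7% lower. Rragd, a Rag GTPase, was at 125 ± 9.65 CPM in GNA11 Q209L Bap1 KO tumours and 15.7 ± 18.7 CPM in BRAF V600E Bap1 KO tumours, a log2 fold change of 3.0 ± 0.76. Flcn, the folliculin that acts on the Rag GTPases, differed by 0.98 ± 0.18, the lysosomal anchors Lamtor1 and Lamtor2 by 1.99 ± 0.31 and 1.22 ± 0.27, and the lysosomal calcium channel Mcoln1 by 1.47 ± 0.22. The kinase gene Mtor was at 104 ± 14.9 CPM in GNA11 Q209L Bap1 KO tumours and 103 ± 79.9 CPM in BRAF V600E Bap1 KO tumours. The count was 4 without BRAF V600E Bap1 KO replicates 2 and 4, and 6 higher and 1 lower without replicates 3 and 4.

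Genes listed for Wnt output and LEF1 activity moved in both directions. The list includes Ctnnb1, the gene of beta-catenin itself, which is a part of the pathway and not an output of it. Of 10 tested, 6 were called lower in GNA11 Q209L Bap1 KO tumours than in BRAF V600E Bap1 KO tumours and 2 higher, with a median of -2.47. Over all genes, 24.7% were called lower and 16.5% higher. Apcdd1, an inhibitor of Wnt signalling, was at 1.05 ± 1.05 CPM in GNA11 Q209L Bap1 KO tumours, 1.04 ± 0.713 CPM in GNA11 Q209L tumours and 59.3 ± 19.9 CPM in BRAF V600E Bap1 KO tumours (SD, n = 5, 2 and 4), and Lgr5, a receptor for R-spondins, differed by -3.93 ± 0.73 between GNA11 Q209L Bap1 KO tumours and BRAF V600E Bap1 KO tumours. Ctnnb1, which encodes beta-catenin, was higher, at 2246 ± 338 CPM in GNA11 Q209L Bap1 KO tumours and 567 ± 164 CPM in BRAF V600E Bap1 KO tumours (log2 fold change 1.99 ± 0.32), and so was Ccnd1, cyclin D1, by 1.64 ± 0.49. Axin2, a feedback inhibitor, had 0.53 ± 0.41 (adjusted p = 0.319, edgeR). Between GNA11 Q209L tumours and BRAF V600E Bap1 KO tumours, 3 were called lower (Notum, Lgr5 and Apcdd1) and 1 higher (Ctnnb1). There, 5.93% of all genes were called lower and 9.27% higher. Without BRAF V600E Bap1 KO replicates 2 and 4, 4 were called lower in GNA11 Q209L Bap1 KO tumours than in BRAF V600E Bap1 KO tumours and 1 higher, and without replicates 3 and 4 it was 5 lower and 2 higher, with a median of -0.98. The keratinocyte and hair follicle markers given with Lef1 were also higher in BRAF V600E Bap1 KO replicates 3 and 4, and their part in the result was not tested.

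Of 24 listed close relatives of the 10 genes, 17 were tested. In GNA11 Q209L Bap1 KO tumours 11 were called lower than in BRAF V600E Bap1 KO tumours (24.7% of all genes) and 1 higher (16.5% of all genes). The median was -4.33, or -2.03 with the 2 genes at 0 counts in GNA11 Q209L Bap1 KO tumours (Pax1 and Tfap2e) set at 3 counts per library. These 2 passed the filter only through counts in the other genotypes and could not come out higher. The count and the median thus depend in part on the filter. Tbx3, the closest relative of Tbx2, was at 1.79, 0.61, 0.27, 0.43 and 0.48 CPM in GNA11 Q209L Bap1 KO tumours, at 2.88 and 1.92 CPM in GNA11 Q209L tumours, and at 105, 38.2, 20 and 12.9 CPM in BRAF V600E Bap1 KO tumours, the reverse of Tbx2. It was lower in GNA11 Q209L Bap1 KO tumours with a log2 fold change of -5.95 and an SE of 0.78 (adjusted p = 0.000732, edgeR). Tbx1 was the 1 called higher, by 4.51 ± 0.88. Tfap2c, a relative of Tfap2a, was at 0.503 ± 1.09 CPM in GNA11 Q209L Bap1 KO tumours and 26.8 ± 7.08 CPM in BRAF V600E Bap1 KO tumours, while Tfap2b had 0.69 ± 0.43 (adjusted p = 0.216, edgeR). Pax9 had a log2 fold change of -8.49 ± 1.44. Between GNA11 Q209L tumours and BRAF V600E Bap1 KO tumours, Tbx3 and Tfap2c were the 2 called, both lower (5.93% of all genes). The count of lower genes in GNA11 Q209L Bap1 KO tumours was 5 without BRAF V600E Bap1 KO replicates 2 and 4, and 8 of 14 without replicates 3 and 4, with a median of -1.66. The median was -1.28 by voom and -1.35 in a fit without the GNA11 Q209L libraries. The keratinocyte and hair follicle markers given with Lef1 were also higher in BRAF V600E Bap1 KO replicates 3 and 4, and salivary gland markers were at 1.24 to 6.06 CPM in GNA11 Q209L Bap1 KO tumours and 18.3 to 173730 CPM in BRAF V600E Bap1 KO tumours. Their part in the result was not tested.

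Among other regulators of melanocytes and the neural crest, 3 of 17 were called higher in the GNA11 Q209L Bap1 KO tumours than in BRAF V600E Bap1 KO tumours and 7 lower (median -0.45), shares of 17.6% and 41.2%, where 16.5% of all genes were higher and 24.7% lower. Higher were the ETS factor Ets1 (1.61 ± 0.31), the E-box factor Usf2 (1.28 ± 0.25) and the circadian repressor Bhlhe40 (1.03 ± 0.37), and among those lower were Gli2, a factor of Hedgehog signalling (-5.22 ± 0.56), and Tcf4, an E-protein (-3.85 ± 0.69). Without BRAF V600E Bap1 KO replicates 3 and 4, 4 of 16 were called higher and 3 lower. Over the 18 alternatives 2 to 4 were called higher and 3 to 6 lower, so none reached the 7 of the main fit. Sox10 was at 1249 ± 513 CPM in GNA11 Q209L Bap1 KO tumours and 193 ± 251 CPM in BRAF V600E Bap1 KO tumours, and its log2 fold change of 2.70 ± 1.30 missed the threshold (adjusted p = 0.116, edgeR). Its level within BRAF V600E Bap1 KO differed between replicates 1 and 2 and replicates 3 and 4 as given with Mc1r. By their median, genes known to be high in melanoma cells with little MITF ran the opposite way to Mitf. Of 10 tested, 7 were called lower in GNA11 Q209L Bap1 KO tumours than in BRAF V600E Bap1 KO tumours and none higher (median -3.51). Over all genes, 24.7% were called lower and 16.5% higher. The count was also 7 without BRAF V600E Bap1 KO replicates 3 and 4 (median -2.66). Between GNA11 Q209L tumours and BRAF V600E Bap1 KO tumours, 2 of 10 were called lower and none higher (median -1.91). There, 5.93% of all genes were called lower and 9.27% higher. Over the 15 alternatives of that comparison 0 to 4 were called lower. Sox9, Zeb1 and Pou3f2 were chosen for both this list and the regulators above, so the counts of these lists are not independent. The receptor kinase Axl was at 44.4 ± 17.2 CPM in GNA11 Q209L Bap1 KO tumours, 222 ± 143 CPM in GNA11 Q209L tumours and 678 ± 394 CPM in BRAF V600E Bap1 KO tumours, and Wnt5a, Egfr and Nt5e differed by -4.24 ± 0.72, -3.75 ± 0.60 and -4.15 ± 0.95 between GNA11 Q209L Bap1 KO tumours and BRAF V600E Bap1 KO tumours. Fibroblasts express several of these genes, and summed fibroblast markers were at 286 to 2189 CPM in GNA11 Q209L Bap1 KO tumours, 2833 to 11147 CPM in GNA11 Q209L tumours and 3081 to 18166 CPM in BRAF V600E Bap1 KO tumours; their part in the result was not tested.

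Around Mc1r, 2 of 7 tested melanocortin genes were called higher in the GNA11 Q209L Bap1 KO tumours than in BRAF V600E Bap1 KO tumours and 2 lower, where 16.5% of all genes were higher and 24.7% lower, with a median of 0.36. Gnas, the stimulatory G protein subunit that couples MC1R to cyclic AMP, differed by 1.12 ± 0.28 and Mgrn1, a ubiquitin ligase of MC1R, by 0.88 ± 0.25. The receptors Mc2r and Mc5r, used by adrenal and sebaceous cells, had 0 counts in all 5 GNA11 Q209L Bap1 KO libraries and averaged 0.415 and 1.22 CPM in BRAF V600E Bap1 KO tumours, so they entered the test only through counts in the other genotypes. In a fit without the GNA11 Q209L libraries, 5 of the list were tested, 2 higher and 0 lower. Pomc, the precursor of the hormone, had 1.07 ± 0.47 (adjusted p = 0.0872, edgeR). Without BRAF V600E Bap1 KO replicates 2 and 4, or without replicates 3 and 4, 5 of these genes remained for testing and 0 were called by edgeR.

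**Figure D5:**
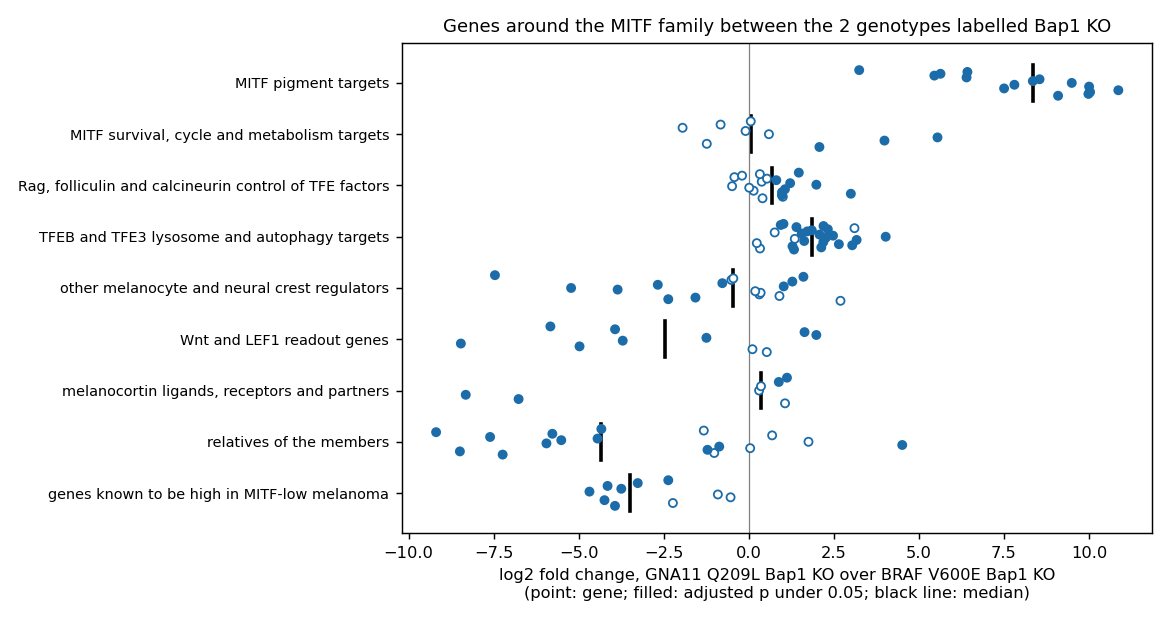
Fitted log2 fold change of GNA11 Q209L Bap1 KO over BRAF V600E Bap1 KO for each tested gene of 9 lists, 1 point per gene, filled where the adjusted p was under 0.05, with the list median as a black line. Genes at 0 counts in GNA11 Q209L Bap1 KO tumours are plotted at their fitted value. Pigment targets (median 8.35) and lysosome targets (median 1.85) lie to the right, relatives of the 10 genes and genes high in MITF-low melanoma (median -3.51) to the left.

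Between GNA11 Q209L Bap1 KO tumours and GNA11 Q209L tumours, none of the 9 lists held a gene called by edgeR in the fit over all libraries. In a fit of these genotypes alone edgeR called 2 of the survival, cycle and metabolism targets lower, and DESeq2 called 1 Wnt readout gene higher, 1 relative lower and 1 gene of MITF-low melanoma lower. Their medians ran between -0.98, in the genes high in MITF-low melanoma, and 0.36, in the pigment targets, against -0.0040 over all genes. Axl had a log2 fold change of -2.32 ± 0.55 there (adjusted p = 0.196, edgeR).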

How the data were processed

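RNA sequencing of 11 mouse tumours was deposited as 1 table of expected counts per gene, which the authors had not normalised. The gene values were whole numbers. Per the submitters' processing notes, STAR and the build mm9 were used. Versions, the counting program and its use of strand are not stated in the sources at hand. Of 18769 lines with an ID, 7 repeats and 6 transgene rows were left out of gene tests, as were rows of library quality. Genotype came from the labels. The main fit was edgeR 4.0.16 (R 4.3.3) with TMM scaling, its default expression filter and the quasi-likelihood test over all 11 libraries, with Benjamini-Hochberg adjustment over 17350 genes and a threshold of 0.05. CPM used TMM library sizes, and log2 CPM a prior count of 2. The scripts were tested on simulated counts. Mitf's share of family counts was compared by exact two-sided permutation. Alternatives were DESeq2 1.42.0, voom of limma 3.58.1, median-of-ratios scaling, no filter, a fit of 2 genotypes, Xist as a covariate, shares per exon length, the libraries of the shared identifier summed, and each library left out. Leaving out BRAF V600E Bap1 KO replicates 2 and 4, or 3 and 4, was chosen after seeing the data. Exon lengths came from GENCODE vM21 and promoters from RefSeq (GRCm38.p6), a later build than that of the counts. Floors of 3 counts cover counting error only.

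The 10 genes and the lists were chosen with earlier results of these data known. Of 147 list entries, 134 matched. Named by rule were the 10 genes, the nearest profiles (5 for Mitf, up to 3 for the others) and up to 4 genes per list and comparison with the smallest p. Other genes named from the lists (such as Myo5a, Rragd, Sox10, Tbx1, Tfap2b, Axin2 and Pomc) were picked after their values were seen.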

Additional observations from a re-analysis of the deposited data

Results flagged for a closer look

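In groups of 4 or 5 libraries, the highest or lowest value was set against the rest of its group by Dixon's gap. Of 22 groups tested, 4 had a library that stood apart, each as the highest value. Chance gives about 1 in 20 for normally distributed values. The values here were CPM without a log scale, so that rate may not hold. Tbx2 was at 418 CPM in GNA11 Q209L Bap1 KO replicate 2 and at 107 to 169 CPM in the other 4 libraries. Tfe3 was at 94.4 CPM in BRAF V600E Bap1 KO replicate 1 and at 51.3 to 55.3 CPM in the other 3. Pax3 was at 76.0 CPM in BRAF V600E Bap1 KO replicate 2 and at 3.98 to 13.8 CPM in the others. Cited1 was at 1.26 CPM in the same replicate 2 and at 0.39 to 0.45 CPM in the others.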

How the results depend on the processing

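Over 470 alternative values of the 10 genes' fold changes, 436 kept their direction and side of the threshold, 14 lost a call, 7 gained one and 13 changed sign. Of the 8 genes called for GNA11 Q209L Bap1 KO over BRAF V600E Bap1 KO, 7 were called in all 18 alternatives, and Tfec was not in 11. Between GNA11 Q209L and BRAF V600E Bap1 KO, Mitf, Cited1 and Mc1r were called in all 15. The number of the 10 genes called there was 3 to 6 with 1 library left out, lowest without GNA11 Q209L replicate 2. Over all genes, the number called for GNA11 Q209L Bap1 KO over BRAF V600E Bap1 KO was 3571 without BRAF V600E Bap1 KO replicates 2 and 4, against 7146. Between GNA11 Q209L and BRAF V600E Bap1 KO, where edgeR called 2637, it was 5458 by DESeq2, 417 in a fit of the 2 genotypes alone, 1192 with Xist as a covariate, 838 without BRAF V600E Bap1 KO replicates 2 and 4, and 265 to 2867 with 1 library left out. For GNA11 Q209L Bap1 KO over GNA11 Q209L, where edgeR called 5, it was 3 with median-of-ratios scaling, 3 without a filter, 442 by DESeq2, 64 in a fit of the 2 genotypes alone, 0 by edgeR with the libraries of 1 identifier summed, 0 by edgeR with Xist as a covariate, and 0 to 1 with 1 library left out. In the 15 alternatives for GNA11 Q209L over BRAF V600E Bap1 KO, 10 to 23 lysosome and autophagy genes and 0 to 9 genes of the Rag and folliculin list were called higher. The causes were not tested. The Mitf share differed by 54.6 points between GNA11 Q209L Bap1 KO tumours and BRAF V600E Bap1 KO tumours without replicates 2 and 4 of the BRAF genotype, and by 51.4 without its replicates 3 and 4 (exact permutation p = 0.0952 each, the smallest that 5 against 2 libraries allow).

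The signs that changed belonged to values that no setting called. For GNA11 Q209L over BRAF V600E Bap1 KO, Tfap2a was 0.0102 in a fit of the 2 genotypes alone, 0.0015 with the libraries of 1 identifier summed, 0.0482 with Xist as a covariate and -0.89 to 0.42 with 1 library left out (highest without GNA11 Q209L replicate 1), and Tfec was -3.61 to 0.25 (highest without GNA11 Q209L replicate 2). For GNA11 Q209L Bap1 KO over GNA11 Q209L, Tbx2 was -0.0949 by voom, -0.14 with the libraries of 1 identifier summed, and -0.46 to 0.54 with 1 library left out (below 0 without GNA11 Q209L Bap1 KO replicate 2 or GNA11 Q209L replicate 1). With 1 library left out, Mc1r was -0.43 to 1.56 (below 0 without those same libraries), Tfec -2.96 to 0.86 (highest without GNA11 Q209L replicate 1) and Tfap2a -0.74 to 0.63 (highest without GNA11 Q209L replicate 2). No paired analysis was possible because replicate numbers were given in accession order and tie no library of one genotype to a library of another. With 2 GNA11 Q209L libraries, leaving 1 out assumes that the lone library varies like the other groups.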
